A study of Mus musculus with 6 samples.

Results

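The Hox genes of mouse epidermal keratinocytes were taken from the count table by their symbols: every row named Hox, followed by a cluster letter from a to d and a number, was a member. This gave 39 genes of the 23420 in the table, 11 in the Hoxa, 10 in the Hoxb, 9 in the Hoxc and 9 in the Hoxd cluster. Each was followed across 6 mRNA libraries and compared between 2 groups by cluster and by paralogue number, the number that genes of the same ancestry share between clusters. Of the 39 genes, 17 had enough reads to be tested, among them Hoxa2 to Hoxa7, Hoxa9, Hoxb2 to Hoxb9 and Hoxc13.

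Keratinocytes of the epidermis, grown in low-calcium E medium to passage 8 to 10, were the source of all libraries. Both groups carried loxP-flanked Gata6 alleles (Gata6 fl/fl) and were given 1 µM 4-hydroxytamoxifen for 6 hours. Cells labelled WT lacked K14CreERT2, a Cre recombinase that tamoxifen activates and that the keratin 14 promoter drives in basal keratinocytes. Cells labelled iKO (induced knockout) carried it, and each group had 3 libraries. The agent was thus shared by both groups and only the Cre transgene set them apart by label. The labels do not say from which body site the skin was taken, whether a group's libraries came from separate animals or cultures, or what sex the animals were. P-values therefore speak only to the variation among these libraries, and that variation may be technical.

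Hox genes encode homeodomain transcription factors that give cells their position along the body axis and, for posterior members, along limbs and the genital tubercle. They lie in clusters, and their order on the chromosome follows the order in which they are used from head to tail, low numbers anteriorly and high numbers posteriorly. Polycomb complexes keep unused members silent and Trithorax complexes keep used members active. Skin cells retain part of this code in culture, a property best described in human fibroblasts. GATA6 is a zinc finger factor that in mouse skin marks the sebaceous duct and parts of the hair follicle.

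Reads assigned to genes numbered 21943467 to 83337263 per library, and Hox genes took 0.0133% to 0.0178% of them in libraries labelled WT and 0.0190% to 0.0242% in those labelled iKO. Gata6, the targeted gene, went against its label. In CPM (reads of a gene per 1000000 reads assigned to genes, with library sizes scaled by TMM factors), it stood at 2.86, 0.519 and 5.37 in the WT libraries 2, 3 and 4, against 14.2, 21.0 and 17.002 in the iKO libraries 3, 4 and 33, the last numbered as its column and matching no title, with a log2 difference of 2.60 ± 0.72 (SE, n = 3 per group; edgeR adjusted p = 0.180, DESeq2 adjusted p = 0.00199). Directions below are therefore those of the library labels and not of Gata6 loss. Sex-linked RNA also followed the labels: Xist lay at 605 to 889 CPM in the WT libraries and at most at 2.62 CPM in the iKO libraries, while Kdm5d, on the Y chromosome, had no read in WT and 15.3 to 22.9 CPM in iKO. Sex and genotype label cannot be told apart. Keratinocyte markers (8 of 8 with counts) summed to 31270 to 43810 CPM in WT and 33060 to 48510 CPM in iKO. All 8 were tested, 5 fitted higher and 3 lower, with log2 differences from -1.28 to 0.57. EdgeR called 0, against 0.339% of all genes. DESeq2 called 1 higher and 1 lower, against 6.49% of all genes, and 3 had an unadjusted p below 0.05, against 15%. Fibroblast markers (8 of 10 with counts, Dcn and Lum at 0) summed to 1.66 to 5.37 and 3.10 to 6.35 CPM. Of the 4 fibroblast markers tested, 3 fitted higher in iKO, with a median log2 difference of 0.63. For these, edgeR called 0 and DESeq2 called 1, against 0.339% and 6.49% of all genes. The called gene was Col6a2, at 0.228 to 0.507 CPM in WT and 1.2002 to 1.57 CPM in iKO (log2 difference 1.87 ± 0.40, edgeR adjusted p = 0.118, DESeq2 adjusted p = 0.0131). Melanocyte markers (6 of 7, Dct at 0) summed to 6.09 to 11.9 and 5.69 to 8.47 CPM, endothelial markers (4 of 5, Emcn at 0) to 9.31 to 19.1 and 7.29 to 8.94 CPM, and immune markers (6 of 7, Cd207 at 0) to 2.28 to 4.31 and 2.999 to 3.58 CPM. The part of these cell types in the Hox values was not tested. These are bulk libraries, so more cells that use a gene and more RNA of it per cell cannot be told apart.

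Hoxb8, which had the largest fold difference among the tested Hox genes, is shown with sequences that bear on its regulation. Its promoter window, 250 bases before to 50 after the annotated start (RefSeq, GRCm38.p6), is printed beside that of Hoxb4, a gene of the same cluster whose groups overlapped. Capitals mark matches to TATAAA, the TATA box core, or to TGATNNAT, a core bound by Hox proteins together with Pbx proteins, searched on both strands with no overlap between hits.
Hoxb8, chr11:96281655-96281954, plus strand: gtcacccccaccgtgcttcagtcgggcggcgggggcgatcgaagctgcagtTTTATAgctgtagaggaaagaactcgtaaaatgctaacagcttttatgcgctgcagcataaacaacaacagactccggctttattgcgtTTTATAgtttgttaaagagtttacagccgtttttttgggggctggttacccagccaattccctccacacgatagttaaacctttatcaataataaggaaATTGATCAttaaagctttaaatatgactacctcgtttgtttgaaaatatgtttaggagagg
Hoxb4, chr11:96318017-96318316, plus strand: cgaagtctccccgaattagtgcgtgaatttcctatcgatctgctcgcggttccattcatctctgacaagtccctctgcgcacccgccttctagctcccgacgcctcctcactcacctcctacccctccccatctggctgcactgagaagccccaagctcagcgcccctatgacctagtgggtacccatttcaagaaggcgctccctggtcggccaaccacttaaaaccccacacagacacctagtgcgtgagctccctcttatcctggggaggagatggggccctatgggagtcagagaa
The Hoxb8 window held 2 TATAAA matches and 1 TGATNNAT match, at 42.3% GC. The Hoxb4 window held neither, at 58.0% GC. RefSeq windows were matched for 22 Hox genes, 24 windows in all. In the Hoxb cluster only Hoxb1, Hoxb4 and Hoxb8 had a window, so the promoters of Hoxb5, Hoxb6, Hoxb7 and Hoxb9 were not searched. AGATAA, a core bound by GATA factors, was found in 0 of these 24 windows and in 11.2% of all 32851 promoter windows. Other sequences that hold GATA were not searched. The printed Hoxb8 window contains TGATAA on the opposite strand, unmarked, so the 0 does not mean that GATA is absent. TGATNNAT was found in 16.7% of the Hox windows and 8.85% of all windows, and TATAAA in 16.7% and 13.6%. A match describes letters only and is not evidence of binding.

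The clusters also encode miR-196, a microRNA known to act on Hoxb8 messenger RNA in mouse embryos by cleaving it. Its mature forms are shown because they share 1 seed (bases 2 to 8, in capitals) and differ outside it.
miR-196a-5p, chr11:96265187-96265208, plus strand: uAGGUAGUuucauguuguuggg
miR-196b-5p, chr6:52230129-52230150, minus strand: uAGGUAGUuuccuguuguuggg
The first is encoded between Hoxb9 and Hoxb13 and again, with the same mature sequence, in the Hoxc cluster at chr15:102973365-102973386. The Hoxb8 3′ UTR holds a stretch that pairs with miR-196a over its whole length, with the base of the lone G:U pair in capitals.
Hoxb8 site, chr11:96284888-96284909, plus strand: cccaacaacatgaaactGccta
Of its 22 bases, 21 form Watson-Crick pairs, and the G:U pair lies opposite microRNA base 5, inside the seed. An exact seed match (ACTACCT) was therefore not found in the Hoxb8 3′ UTR. It was found in the 3′ UTRs of 9 of 39 Hox genes (23.1%), against 6.1% of 21022 genes with an annotated 3′ UTR, among them Hoxa7 with 4 matches and Hoxb6 and Hoxb7 with 1 each. Reads on the Mir196a-1 locus, which a messenger RNA library takes from precursor transcripts rather than from the mature microRNA, gave 0.692, 1.23 and 1.17 CPM in WT and 1.60, 1.18 and 1.27 CPM in iKO. These ranges overlapped, with a log2 difference of 0.37 ± 0.34 (SE; edgeR adjusted p = 0.661).

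The keratinocytes used mainly the Hoxb cluster. To order genes within a library, levels were set per length, as normalised CPM per kilobase of exon. Hoxb9, a factor of the rib-bearing trunk, stood first at 19.9 ± 4.34 in WT and 37.3 ± 5.61 in iKO (mean ± SD, n = 3 each). Over all libraries Hoxb7 came next (6.97 ± 1.48 and 11.4 ± 1.25), followed by Hoxc13 (8.67 ± 6.32 and 6.78 ± 4.74), Hoxb6 (4.03 ± 1.23 and 8.08 ± 2.13) and Hoxb8 (2.16 ± 0.354 and 7.73 ± 2.70). The step from Hoxb9 to Hoxb7 exceeded the spread of both, whereas Hoxb7, Hoxc13, Hoxb6 and Hoxb8 had ranges that ran into each other over the 6 libraries. Hoxa5 was the highest Hoxa gene, at 4.29 ± 2.03 in WT and 3.65 ± 0.798 in iKO. The lowest tested member was Hoxa9, at 0.103 ± 0.0357 in WT and 0.0860 ± 0.0428 in iKO. Paralogue 9 made up 36.7% of the summed level and paralogue 7 another 14.9%, with the Hoxb gene above the Hoxa gene of the same number in all libraries.

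**Figure D1:**
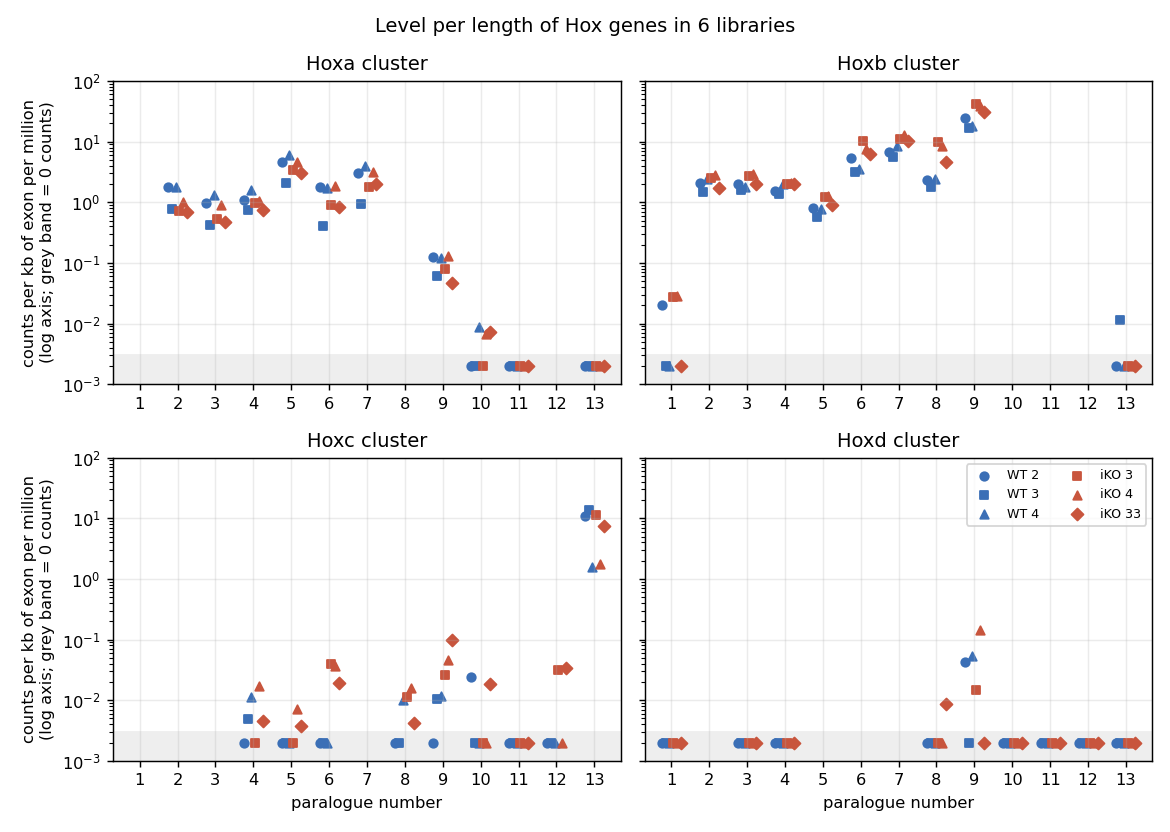
Level per length (normalised CPM per kilobase of exon, log axis) of Hox genes against their paralogue number, 1 panel per cluster and 1 point per library; points in the grey band had no read. Hoxb2 to Hoxb9 form a run with Hoxb9 at the top, and Hoxa2 to Hoxa7 form another. Hoxa5 and Hoxa7 lie above Hoxb2 to Hoxb5 in mean level over all libraries. Hoxc13 stands alone in its cluster, and no Hoxd gene rises above trace level.

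Genes outside these runs were at or near the limit of detection. No read fell on 10 Hox genes in any library: Hoxa11, Hoxa13, Hoxc11, Hoxd1, Hoxd3, Hoxd4 and Hoxd10 to Hoxd13. A count of 0 in the 295919976 gene reads allows up to 0.0101 CPM (3 counts over all libraries), for counting error only. Another 12 genes had between 2 and 30 reads in all: Hoxa10, Hoxb1, Hoxb13, Hoxc4, Hoxc5, Hoxc6, Hoxc8, Hoxc9, Hoxc10, Hoxc12, Hoxd8 and Hoxd9. The most in a single library was 20, for Hoxc9 in iKO library 33. The silent set includes Hoxa13 and Hoxd13, which pattern digits and the genital tubercle, and Hoxa11, which patterns the forearm.

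No Hox gene passed the threshold of edgeR's quasi-likelihood test with Benjamini-Hochberg adjustment over 12672 genes, against a background of 0.339% of tested genes called (0.229% called higher, 0.11% lower). At an unadjusted p below 0.05 there were 6 of 17, Hoxb3 and Hoxb5 to Hoxb9, against a background of 15% of genes (7.32% in the higher direction). DESeq2 called 4 of 17, Hoxb6 to Hoxb9, all higher in iKO, against 3.34% of genes called higher (6.49% in either direction). Limma-voom called 0. The same 4 genes are below 0.05 in the authors' deposited table, where 3.05% of genes are called higher. That table is named for DESeq2 and covers the same comparison, so it is not independent of the DESeq2 calls. Groups did not overlap for 5 of the 17 tested members, Hoxb5 to Hoxb9, all higher in iKO, against a background of 10.5% of tested genes. Of the tested members 0 lay lower without overlap, against 11.3%. Of the 12 Hox genes with reads but too few to test, Hoxc6 and Hoxc9 lay higher in iKO without overlap. The background share covers tested genes only, and none was computed for genes this low. Hoxc6 had no read in WT and 3, 4 and 4 in iKO. Hoxc9 had 0, 2 and 1 reads in WT and 2, 5 and 20 in iKO. The fitted direction followed the cluster. All 8 tested Hoxb genes had a log2 difference above 0 (median 0.69) and all 8 tested Hoxa genes below 0 (median -0.26), while 51.2% of all tested genes lay above 0 (median 0.01).

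**Figure D2:**
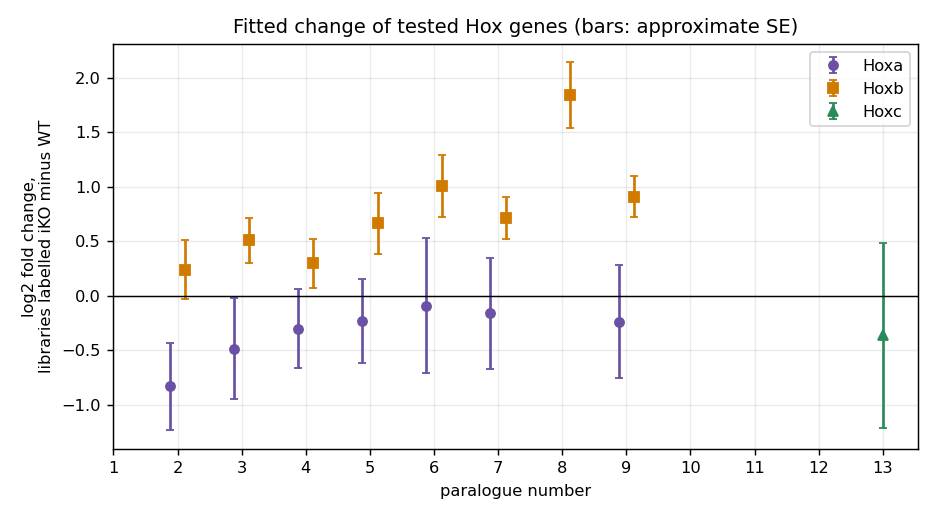
Fitted log2 fold change (libraries labelled iKO minus WT) of tested Hox genes against paralogue number, coloured by cluster, with bars of 1 approximate SE. All Hoxb genes lie above 0, with Hoxb8 at 1.84, and the plotted Hoxa genes and Hoxc13 lie below 0, most of them within 1 SE.

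Hoxb8 had the largest fold difference of the tested Hox genes. This gene, whose loss in mice causes excessive grooming, is identified as ENSMUSG00000056648.5 and lies at chr11:96281905-96285315. It had 6.04, 4.63 and 6.397 CPM in WT libraries 2, 3 and 4, and 26.0, 22.8 and 12.4 CPM in iKO libraries 3, 4 and 33. Every iKO library lay above every WT library, with iKO 33 the lowest of its group. The log2 difference was 1.84 ± 0.30 (SE), a 3.58-fold change at the 98.9th percentile of all tested genes. It missed the threshold in edgeR (adjusted p = 0.0657) and passed it in DESeq2 (adjusted p = 1.57e-06). It also passed in edgeR without iKO library 33 (adjusted p = 0.0380).

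Hoxb9 (ENSMUSG00000020875.9, chr11:96271457-96276595) had 63.9, 43.0 and 46.4 CPM in WT and 108, 100.3 and 79.9 CPM in iKO. The groups did not overlap, and the log2 difference was 0.91 ± 0.19 (SE; edgeR adjusted p = 0.114, DESeq2 adjusted p = 0.00125). With up to 6792 reads in a library it was the most deeply counted Hox gene. Under DESeq2, Hoxb8 and Hoxb9 were called in 6 of 6 fits that each left out 1 library. These fits called 425 to 688 genes in all and share most of their libraries, so they are not independent.

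Hoxb6, a trunk gene next to Hoxb7, had 10.6, 6.10 and 6.97 CPM in WT and 20.4, 15.0 and 12.2 CPM in iKO. The lowest iKO library stood just above the highest WT library, and the log2 difference was 1.01 ± 0.28 (SE; edgeR adjusted p = 0.180, DESeq2 adjusted p = 0.0229). Hoxb7, which promotes proliferation when raised in human melanoma cells, had 10.3, 8.75 and 13.2 CPM in WT and 16.9, 19.8 and 16.1 CPM in iKO. Its groups did not overlap either, with a log2 difference of 0.71 ± 0.19 (SE; edgeR adjusted p = 0.176, DESeq2 adjusted p = 0.0292). These 2 calls were less stable under DESeq2. Hoxb6 was called in 2 of 6 fits with a library left out (without WT 2 or without iKO 33), with adjusted p up to 0.158, and Hoxb7 in 1 of 6 (without WT 4), with adjusted p up to 0.187.

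Hoxb2 to Hoxb5, the Hoxb genes that DESeq2 did not call, had log2 differences from 0.24 to 0.66, and Hoxb5 lay close to Hoxb7. Hoxb5, a gene of the shoulder level, had 2.26, 1.58 and 2.19 CPM in WT and 3.39, 3.60 and 2.54 CPM in iKO, and did not overlap (log2 difference 0.66 ± 0.28; edgeR adjusted p = 0.332). Hoxb4, known for expanding blood stem cells, had 3.96, 3.53 and 5.20 CPM in WT and 5.08, 5.35 and 5.19 CPM in iKO. WT library 4 reached into the iKO range, and the log2 difference was 0.30 ± 0.23 (SE; adjusted p = 0.588).

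Hoxb3 and Hoxb2 pattern the hindbrain. Hoxb3 had 8.53, 6.66 and 7.68 CPM in WT and 11.7, 12.3 and 8.50 CPM in iKO, with iKO 33 just below WT 2 (log2 difference 0.51 ± 0.21; adjusted p = 0.311). Hoxb2 had 7.38, 5.14 and 8.36 CPM in WT and 8.63, 9.93 and 6.05 CPM in iKO, with iKO 33 inside the WT range (0.24 ± 0.27, adjusted p = 0.734). Antisense transcripts limit both values. Of the annotated exon bases of Hoxb3, 52.9% overlap the antisense gene Hoxb3os, and 27.3% of those of Hoxb2, and the library kit does not mark strand. Hoxb4 and Hoxb6 to Hoxb9 have no annotated exon overlap.

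**Figure D3:**
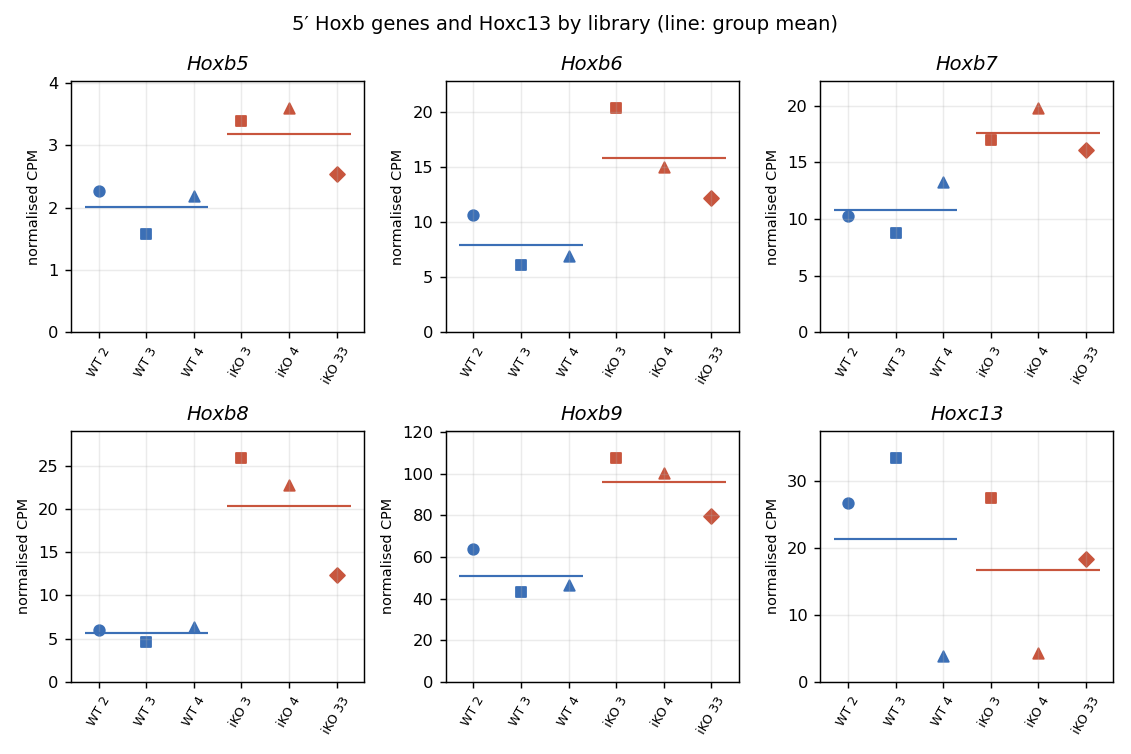
Normalised CPM (linear axes from 0) of the Hoxb genes named on each panel and of Hoxc13 in each of the 6 libraries, with a line at each group's mean. Hoxb8 lies at 4.63 to 6.397 in WT and 12.4 to 26.0 in iKO, whereas Hoxc13 is low in WT 4 and iKO 4 alike.

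The Hoxa genes did not separate the groups. Hoxa2, the selector of the second pharyngeal arch, had the largest fitted difference of the cluster, with 3.18, 1.37 and 3.18 CPM in WT and 1.28, 1.80 and 1.24 CPM in iKO (-0.83 ± 0.40; adjusted p = 0.391). WT library 3 fell inside its iKO range.

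Hoxa3, needed for thymus and parathyroid, had 5.76, 2.52 and 7.88 CPM in WT and 3.13, 5.51 and 2.87 CPM in iKO (-0.48 ± 0.46; adjusted p = 0.678). Hoxa4 had 1.71, 1.19 and 2.56 CPM in WT and 1.53, 1.69 and 1.2002 CPM in iKO (-0.30 ± 0.37; adjusted p = 0.754). Hoxa5, which acts in lung and neck, had 8.67, 3.98 and 11.5 CPM in WT and 6.33, 8.53 and 5.67 CPM in iKO (-0.23 ± 0.39; adjusted p = 0.831). In all of these the iKO values lay between the lowest and highest WT value.

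Hoxa7 is described in human keratinocytes as a repressor of differentiation genes. It had 8.81, 2.65 and 11.2 CPM in WT and 5.21, 9.13 and 5.84 CPM in iKO (-0.16 ± 0.51; adjusted p = 0.919). Hoxa6 had 1.57, 0.355 and 1.48 CPM in WT and 0.799, 1.60 and 0.718 CPM in iKO (-0.09 ± 0.62; adjusted p = 0.961). Hoxa9, a partner of Meis1 in leukaemia, had 0.692, 0.342 and 0.682 CPM in WT and 0.448, 0.733 and 0.259 CPM in iKO (-0.24 ± 0.52; adjusted p = 0.876). The sign of the fitted value for Hoxa4, Hoxa5, Hoxa6, Hoxa7 and Hoxa9 turned under at least 1 other setting, so the run of 8 negative values depends on the libraries and model used. Of the annotated exon bases of Hoxa7, 20.4% overlap an antisense transcript, and 27.1% of those of Hoxa3 overlap transcripts of either strand. Smaller parts of Hoxa2 and Hoxa4 overlap other transcripts.

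Within a group, Hox genes of both clusters moved with the library. WT 3 was the lowest WT library for 8 of 8 Hoxa and 8 of 8 Hoxb genes, and iKO 33 the lowest iKO library for 7 of 8 in each cluster. They are the deepest library of each group. In Hoxa genes the median log2 deviation of WT 3 from the group mean was -0.85, against -0.28 in Hoxb genes. When WT 3 and iKO 33 were matched as a block, Hoxb8 passed the edgeR threshold (adjusted p = 0.0312) and no other Hox gene did. Reads that did not align uniquely made up 29.5% to 30.5% of all reads in WT and 21.7% to 26.5% in iKO, and their part in the Hoxb values was not tested.

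The Hoxb share of the summed Hox level separated the groups. It reuses the gene values given above and adds no independent evidence. Hoxb genes held 61.4%, 59.1% and 63.0% of the summed level per length in WT libraries 2, 3 and 4, and 78.2%, 80.2% and 76.3% in iKO libraries 3, 4 and 33, or 61.2% ± 1.96 against 78.2% ± 1.96 (mean ± SD, n = 3 each). The groups did not overlap in this share. They did overlap in the Hoxa share, at 23.9%, 15.9% and 34.4% in WT and 11.0%, 17.7% and 13.9% in iKO. The Hoxb sum itself was 39.2 ± 6.72 in WT and 72.6 ± 11.95 in iKO, and the Hoxa sum 16.0 ± 6.64 and 13.1 ± 3.46. The Hoxb sum divided by the Hoxa sum was 2.57, 3.71 and 1.83 in WT and 7.10, 4.52 and 5.49 in iKO. No p is given for these shares, since the clusters were compared with earlier results known.

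**Figure D4:**
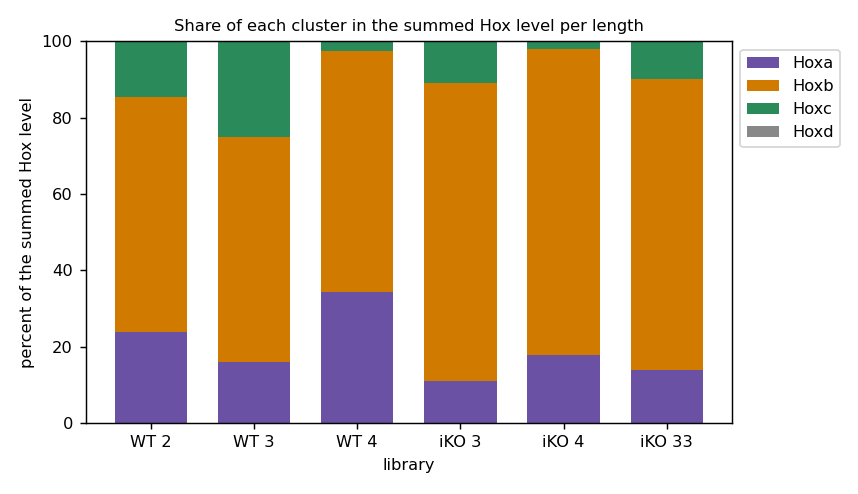
Share of each cluster in the summed Hox level per length, in percent, as 1 stacked bar per library. Hoxb holds 59.1% to 63.0% in the WT libraries and 76.3% to 80.2% in the iKO libraries, while the Hoxc share, almost all Hoxc13, runs from 1.94% to 24.96%.

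Paralogue pairs set the clusters against each other gene by gene. For 7 numbers both the Hoxa and the Hoxb gene were tested. The log2 ratio of the Hoxb to the Hoxa level per length did not overlap between groups for numbers 2, 4, 5 and 9, and overlapped for 3, 6 and 7. Among single tested genes 21.9% did not overlap, and no such share was computed for ratios of gene pairs. The ratios reuse the gene values given above and add no independent evidence. Paralogue 9 was the most uneven pair. Hoxb9 exceeded Hoxa9 by 7.65, 8.09 and 7.204 log2 units in WT and by 9.03, 8.21 and 9.39 in iKO. Paralogue 5 ran the other way: Hoxb5 stood below Hoxa5 in all libraries, by -2.51, -1.90 and -2.96 log2 units in WT and -1.47, -1.81 and -1.73 in iKO. For paralogue 2 the ratio was 0.24, 0.94 and 0.42 in WT and 1.78, 1.49 and 1.32 in iKO.

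Hoxc13, the posterior Hoxc gene needed for hair and nail keratin, varied by library and not by label. It had 26.7, 33.5 and 3.81 CPM in WT and 27.5, 4.29 and 18.3 CPM in iKO (ENSMUSG00000001655.6, chr15:102921103-102928814). The libraries numbered 4 were low in both groups. The log2 difference was -0.36 ± 0.85 (SE; edgeR adjusted p = 0.885), and its sign turned when WT 3 or iKO 4 was left out. Msx2 and Dlx3, homeobox genes of hair and epidermis that were picked out after their values were seen, were also lowest in WT 4 among WT libraries and in iKO 4 among iKO libraries. Msx2 had 4.79, 5.56 and 0.825 CPM in WT and 4.38, 1.62 and 3.32 CPM in iKO. Dlx3 had 5.30, 5.18 and 0.739 CPM in WT and 12.2, 2.38 and 3.84 CPM in iKO.

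Few of the other rows inside the clusters carried reads. Of 8, 2 were tested: Mir196a-1, given above, and Gm53, a long noncoding RNA gene between Hoxb13 and Hoxb9 at chr11:96251105-96264868. Gm53 had 10.1, 8.07 and 6.51 CPM in WT and 12.6, 8.98 and 10.1 CPM in iKO, which overlapped (log2 difference 0.36 ± 0.23; edgeR adjusted p = 0.507). Hotair, the noncoding RNA of the Hoxc cluster, had no read. Within 500 kb of the cluster ends, 34 of 56 genes were tested, 18 fitted higher and 16 lower, with a median of 0.02, and edgeR and DESeq2 called 0. At an unadjusted p below 0.05 there were 3 of 34, a share no higher than the 15% of all genes. They were Skap1, an adaptor of T cell receptor signalling beside Hoxb at 96.3 kb (2.26 ± 0.53), 4833417C18Rik (-0.90 ± 0.35) and Prr13 (0.34 ± 0.14). Skap1 had at most 36 reads in a library, and DESeq2 gave it no adjusted p.

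Hox proteins bind DNA with TALE homeodomain partners, the Pbx, Meis and Pknox proteins. Of 8 tested, edgeR called 0; 4 had an unadjusted p below 0.05 and DESeq2 called 1, against 15% and 6.49% of all genes. Meis2 differed by -0.45 ± 0.17 and Pbx2 by 0.27 ± 0.11, neither past the threshold in edgeR or DESeq2.

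The complexes that hold Hox clusters silent or active were read next. For Polycomb repressive complex 2, 10 of 11 genes had enough reads to test, 7 fitted higher and 3 lower, with 0 called by edgeR or DESeq2 and 2 at an unadjusted p below 0.05, against 15% of all genes. Ezh2, its histone methyltransferase, had 137, 104 and 166 CPM in WT and 77.6, 102 and 81.3 CPM in iKO (log2 difference -0.64 ± 0.20; edgeR adjusted p = 0.209, DESeq2 adjusted p = 0.0550). Jarid2, which helps recruit the complex, differed by -0.48 ± 0.17.

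For Polycomb repressive complex 1, 20 genes were tested, 5 fitted higher and 15 lower. EdgeR called 0, 2 had an unadjusted p below 0.05 and DESeq2 called 1, Cbx2, shares no higher than the 15% and 6.49% of all genes. Cbx2, a reader of the repressive mark whose loss in mice shifts vertebral identity, had 56.6, 41.5 and 49.0 CPM in WT and 30.8, 38.0 and 27.4 CPM in iKO (-0.61 ± 0.17; edgeR adjusted p = 0.183, DESeq2 adjusted p = 0.0411). Pcgf5 differed by -1.40 ± 0.51, with WT 3 at 14.2 CPM and the other libraries between 2.04 and 5.12 CPM.

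Among 14 Trithorax and H3K27 demethylase genes, 5 fitted higher and 9 lower; edgeR called 0, 2 had an unadjusted p below 0.05 and DESeq2 called 1, against 15% and 6.49% of all genes. This was Rbbp5, a core part of the histone H3K4 methyltransferase complexes, with 63.5, 66.2 and 66.7 CPM in WT and 45.4, 52.4 and 51.7 CPM in iKO (-0.39 ± 0.11; DESeq2 adjusted p = 0.0331). Wdr5 of the same complexes differed by -0.27 ± 0.11. Among 11 CTCF and cohesin genes, 4 fitted higher and 7 lower; edgeR called 0, and DESeq2 called Maz, which partners CTCF at Hox cluster boundaries and was the one with an unadjusted p below 0.05 (-0.36 ± 0.10; DESeq2 adjusted p = 0.0250), against 15% and 6.49% of all genes.

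Other positional factors were read in the same way. None of the 13 ParaHox and Hox-linked homeobox genes had enough reads to test. Of 15 limb, girdle and dorsoventral factors 4 were tested, 3 fitted higher and 1 lower; edgeR called 0, all 4 had an unadjusted p below 0.05 (15% of all tested genes did), and DESeq2 called 3 (6.49% of all genes). Pitx1, the hindlimb selector that also acts in the lower jaw, had 61.1, 25.8 and 66.2 CPM in WT and 20.8, 10.7 and 19.8 CPM in iKO, with no overlap (log2 difference -1.58 ± 0.40; edgeR adjusted p = 0.164, DESeq2 adjusted p = 0.00244). Emx2, needed for the scapula and the urogenital tract, had 2.81, 0.418 and 2.47 CPM in WT and 10.7, 11.4 and 5.46 CPM in iKO (2.31 ± 0.68; edgeR adjusted p = 0.195, DESeq2 adjusted p = 0.00774).

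The remaining members rested largely on iKO library 33. Sall1, a zinc finger factor of kidney and limb, had 0.184, 0 and 0.284 CPM in WT and 0.735, 0.622 and 4.89 CPM in iKO. Its log2 difference was 3.96 ± 1.34 (edgeR adjusted p = 0.247, DESeq2 adjusted p = 0.0373) and 2.298 without iKO 33. Tbx3, a T-box factor of the posterior limb, had 0.138, 0.0253 and 0.341 CPM in WT and 0.640, 0.311 and 2.04 CPM in iKO, which overlapped (2.70 ± 1.02; edgeR adjusted p = 0.289), and stood at 1.58 without iKO 33.

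Of 20 head and face factors 9 were tested, 4 fitted higher and 5 lower; edgeR called 0, 3 had an unadjusted p below 0.05 and DESeq2 called 1, Dlx2, against 15% and 6.49% of all genes. Dlx2, a factor of the pharyngeal arches, had 59.8, 32.8 and 23.9 CPM in WT and 18.5, 9.55 and 15.2 CPM in iKO (-1.43 ± 0.38; edgeR adjusted p = 0.176, DESeq2 adjusted p = 0.00596). Otx1, a forebrain factor, had 2.12, 2.33 and 2.13 CPM in WT and 3.33, 3.84 and 3.05 CPM in iKO (0.63 ± 0.24; edgeR adjusted p = 0.284). Lhx6, a factor of the first arch and of cortical interneurons, overlapped between groups and had at most 54 reads in a library.

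**Figure D5:**
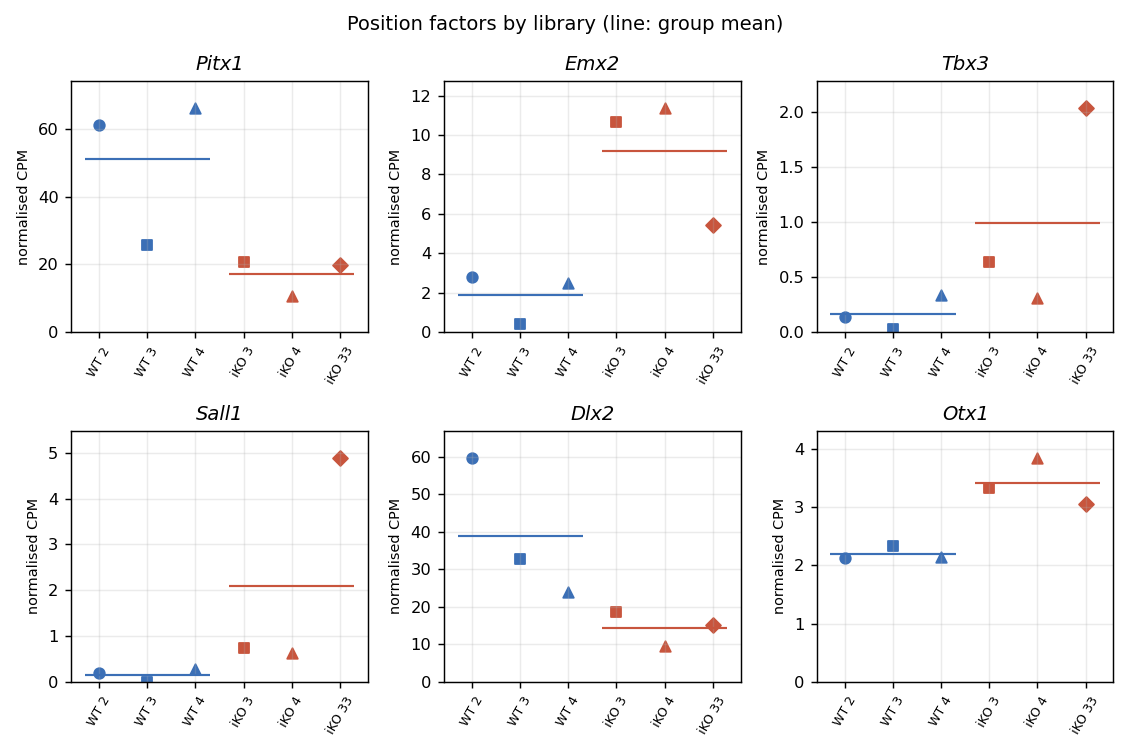
Normalised CPM (linear axes from 0) of 6 positional factors in each of the 6 libraries, with a line at each group's mean. Pitx1 and Dlx2 lie lower in every iKO library than in any WT library and Emx2 higher, while Sall1 is high in iKO 33 at 4.89 and below 1 elsewhere.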

How the data were processed

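Libraries were made from total RNA with TruSeq RNA v2, a kit that does not mark strand, per the labels' protocols. TopHat2, HTSeq, DESeq2, DESeq and mm10 appear in the submitters' processing notes, and the annotation is not given in the sources used here. Raw counts stand in the deposited table for each gene symbol. Its 5 summary rows (27.4% to 35.5% of counts) were left out of library sizes. A second deposited table gives a mean normalised signal, log2 fold change, Wald score and p-value, per the file headers.

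The column numbered 33 matches no iKO title and was used as an iKO library without a number of its own. Genes were filtered with filterByExpr (minimum count 10), scaled by TMM and tested in R 4.3.3 with edgeR 4.0.16 (glmQLFit, glmQLFTest, robust, two-sided, Benjamini-Hochberg at 0.05 over all tested genes), tested on simulated data. DESeq2 1.42.0 and limma-voom (limma 3.58.1) were alternatives, with other scaling, filters, blocks and each library left out. SE was taken as the size of the log2 fold change over the root of its F statistic. Levels per length used merged exons of GENCODE M21 (GRCm38, the same build as mm10), which also gave IDs and positions; sequences came from RefSeq tables (GRCm38.p6), the 3′ UTRs and the Hoxb8 site from GENCODE transcripts.

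The members and gene lists were chosen with earlier results of these data known. Genes to name were set by rule: every tested Hox gene; up to 3 of each other list by smallest unadjusted p, plus called ones; tested genes inside the clusters; and Gata6. Some genes that the rule takes are not reported here. Msx2, Dlx3 and Tbx18 were chosen after their values were seen.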

Additional observations from a re-analysis of the deposited data

How the results depend on the processing

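Hox genes past the threshold numbered 0 in edgeR. They numbered 1 when every gene with a count was kept (Hoxb8, adjusted p = 0.0356), 1 with a block of the deepest library of each group, 1 at an adjusted p below 0.1, 4 under DESeq2, and 0 to 1 with a library left out (1 without iKO 33). With DESeq2 and a library left out, a check added after seeing the data, they numbered 2 to 3. Other scaling, a minimum count of 50, no robust estimation, limma-voom, a fold minimum of 1.2 and removal of X and Y genes gave 0. Calls over all genes numbered 43 in edgeR, 774 in DESeq2, 76 with every gene kept and 62 in limma-voom. They numbered 61 with the block of the deepest libraries and 33 with the fold minimum. With a library left out they numbered 7 to 31 in edgeR and 425 to 688 in DESeq2. Over 18 settings the log2 difference of Hoxb8 ran from 1.63 to 2.16 (adjusted p 1.57e-06 to 0.340), of Hoxb9 from 0.80 to 1.22, of Hoxb6 from 0.79 to 1.44 and of Hoxb7 from 0.58 to 0.88. All 8 Hoxb genes stayed above 0 in each. The median over tested Hox genes, -0.09, was 0.66 with every gene kept, where 29 Hox genes entered. Companion genes past the threshold numbered 0 in edgeR and 8 in DESeq2, against 0.339% and 6.49% of all genes. DESeq2 called 2 higher and 1 lower of 4 tested limb, girdle and dorsoventral factors, and 1 of 9 head and face factors. It called 1 of 8 TALE, 1 of 20 Polycomb complex 1, 0 of 10 Polycomb complex 2, 1 of 14 Trithorax and demethylase, and 1 of 11 CTCF and cohesin genes. Gata6 (2.60) was past the threshold in DESeq2 at 2.59.

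The labels' numbers 3 and 4 occur in both groups, and the deviations of these libraries correlated across genes (0.596), but 2 pairs with no stated link share only a number. With a replicate block on libraries 3 and 4, 2 Hox genes passed (Hoxb8, adjusted p = 0.0359, and Hoxb9, adjusted p = 0.0419), the Hox median was 0.32, and 103 genes were called, against 4 without the block on the same libraries. This block turned Hoxa5 (0.11), Hoxa6 (0.59), Hoxa7 (0.32) and Hoxa9 (0.23) above 0; the same libraries without it turned Hoxa6 (0.42), Hoxa7 (0.056) and Hoxa9 (0.24); the block of the deepest libraries turned Hoxa6 (0.11) and Hoxa7 (0.049); limma-voom turned Hoxa5 (0.033), Hoxa6 (0.28) and Hoxa7 (0.30). With a library left out, Hoxa4 ran from -0.54 to 0.028, Hoxa5 from -0.56 to 0.12, Hoxa6 from -0.55 to 0.21, Hoxa7 from -0.58 to 0.25, Hoxa9 from -0.70 to 0.091 and Hoxc13 from -0.91 to 0.14. The cause was not tested. The 22 untested Hox genes had too few reads for a comparison.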

Other observations

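Of the position factors that had too few reads to test, Tbx18 was chosen for mention after its values were seen. Tbx18, a T-box factor of somites and of the hair follicle mesenchyme, had 0, 1 and 2 reads in the WT libraries and 8, 16 and 57 in the iKO libraries. Library iKO 33, the deepest, held the most.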
